A study of Mus musculus with 14 samples.

Results

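The genes described here build and run the mitotic apparatus: they condense chromosomes, drive entry into mitosis, police and trigger anaphase, form the centromere and kinetochore, move the spindle and split the daughter cells. They were taken from a list of 60 mouse genes in 7 roles, by gene symbol, from the deposited tables of 2 RNA sequencing experiments on macrophages exposed to the cytokine IL4. Of the 60 listed genes, 59 were present in both tables, among the 9474 genes that each table held. Cdc25c, a phosphatase that activates CDK1, was in neither table and has no value here.

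The study concerned IL4, a cytokine of type 2 immunity, and the phagocytosis of leukemia cells by macrophages. In the culture experiment, monocytes purified from the bone marrow of C57BL/6J mice were grown for 7 days in medium with CSF1, alone (4 control libraries) or with murine IL4 at 20 ng/mL for the same 7 days (4 IL4 libraries). The labels give the CSF1 dose as 25 ng/mL in the growth protocol and 20 ng/mL in the design text. In the marrow experiment, C57BL/6J mice received transplanted acute myeloid leukemia (AML) cells that carried either an IL4 cDNA (3 IL4 libraries) or an empty control vector (3 control libraries), and 12 days later the F4/80-positive cells of their bone marrow were sorted, F4/80 being a surface protein of mouse macrophages. All mice of the marrow experiment therefore bore leukemia, and IL4 came from the transplanted cells at a dose that the labels do not give. The labels do not say whether libraries of a group came from separate cultures or mice, or from pools, so every p-value measures only the spread between these libraries, which may be technical. Levels are given in RPM, the reads-per-million scale in which each library is divided by its own total of recovered reads, and this scale is used within 1 gene and not between genes. Differences are log2 fold changes, IL4 minus control, ± their standard error (n = 4 per group in culture, 3 in marrow), tested with limma. A gene was called lower or higher where its Benjamini-Hochberg adjusted p over all 9474 genes was below 0.05.

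Most of these genes are silent in resting cells and are transcribed together as a cell approaches mitosis. In quiescent cells the DREAM complex represses them, and in dividing cells B-Myb and FOXM1 activate them, in large part through a promoter element called the CHR and through CCAAT boxes that bind NF-Y. CSF1 is the growth factor that supports both the survival and the division of macrophages in culture. Both culture groups were grown with it, so its part in their mitotic transcripts was not tested.

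The promoters of 4 members that hold both elements are shown because they carry the letters of both elements. They are RefSeq sequences (mouse GRCm38.p6), 5′ to 3′ on the strand of the gene, and they end just before the first annotated start of the gene, so they are up to 250 bases long. Capitals mark every TTTGAA or its reverse complement TTCAAA (the CHR letters) and every CCAAT or its reverse complement ATTGG. Other forms of either element were not searched, here or in the counts below. Mki67 lies on the minus strand with its window at chr7:135716380-135716629, and Top2a, also on the minus strand, has its window at chr11:99024190-99024439. Cdk1 has its window at chr10:69352939-69353162 and Cdc20 at chr4:118437353-118437593, both on the minus strand.
Mki67: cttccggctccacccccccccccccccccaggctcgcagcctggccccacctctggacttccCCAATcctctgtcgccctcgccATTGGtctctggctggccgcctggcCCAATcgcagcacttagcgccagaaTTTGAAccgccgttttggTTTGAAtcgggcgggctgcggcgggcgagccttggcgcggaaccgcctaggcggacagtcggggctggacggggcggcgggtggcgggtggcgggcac
Top2a: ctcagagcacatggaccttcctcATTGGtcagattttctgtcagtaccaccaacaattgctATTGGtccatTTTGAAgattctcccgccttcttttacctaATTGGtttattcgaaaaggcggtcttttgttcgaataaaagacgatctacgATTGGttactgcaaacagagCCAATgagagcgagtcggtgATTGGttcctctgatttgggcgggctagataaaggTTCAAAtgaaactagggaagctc
Cdk1: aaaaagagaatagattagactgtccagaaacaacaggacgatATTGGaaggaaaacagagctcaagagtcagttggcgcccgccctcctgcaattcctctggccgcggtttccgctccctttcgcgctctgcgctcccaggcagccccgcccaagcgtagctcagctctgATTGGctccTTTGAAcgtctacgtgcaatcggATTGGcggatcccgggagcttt
Cdc20: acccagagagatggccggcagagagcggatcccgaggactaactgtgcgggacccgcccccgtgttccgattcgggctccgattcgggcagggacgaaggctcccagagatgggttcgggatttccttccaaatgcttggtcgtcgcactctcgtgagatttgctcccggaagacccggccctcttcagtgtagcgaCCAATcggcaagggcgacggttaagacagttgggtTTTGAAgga
In these windows the Mki67 sequence held 2 CHR matches and 3 CCAAT matches, Top2a held 2 and 6, Cdk1 held 1 and 3, and Cdc20 held 1 of each.

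The letters were also counted on both strands in every RefSeq promoter window of 300 bases (250 before to 50 after the start), with matches of the 2 motifs allowed to overlap. Of the 59 measured members, 51 had 56 windows in the table, and the others were Incenp, Tpx2, Aurkb, Smc4, Spc24, Kif20a, Ccna2 and Foxm1. CHR letters stood in 38 of the members' 56 windows (67.9%), against 17.9% of all 32851 windows and 11.9% of the windows of genes measured here. CCAAT letters stood in 75.0% of the members' windows, against 37.4% of all windows, and both together in 58.9%, against 6.95%. Genes outside this group that were lower with IL4 in both experiments held CHR letters in 19.1% of their 486 windows. In the members' windows the CHR letters read TTTGAA on the strand of the gene in 51.8% and on the other strand in 23.2%, whereas over all windows the shares were 10.2% and 8.95%. A match is a description of letters, not of binding. The 35 members with CHR letters had a median log2 fold change with IL4 of -2.72 in culture and -1.28 in marrow, and the 16 without them -2.46 and -1.18.

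The libraries were shallow: between 546789 and 891553 reads per library were recovered from the deposited log2 values. A member had a median of 54 to 73 reads in culture controls 1 to 3, 17 in culture control 4, 7 to 10 in the culture IL4 libraries, 90 to 111 in the marrow controls and 35 to 50 in the marrow IL4 libraries. Culture control 4 stood apart from the other 3 controls in these genes, as described further on, so the main culture results are also given without both culture libraries numbered 4. Macrophage genes were present in culture, where the F4/80 gene itself, listed as Emr1, had 1511 to 2415 reads in a control library and 745 to 912 in an IL4 library. A sorted marrow library held only 28 to 65 Emr1 reads in the control group and 37 to 126 in the IL4 group. The same marrow libraries were rich in neutrophil transcripts. The 6 measured neutrophil markers summed to 59060 to 68740 RPM in marrow controls and 44380 to 55260 in marrow IL4 libraries, against 207 to 486 over both culture groups, in which S100a9 was at 0 in all IL4 libraries.

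The 59 genes together took 0.632%, 0.707%, 0.737% and 0.184% of all reads in the culture controls, in the order of libraries 1 to 4 that is used throughout. With IL4 in culture their share was 0.0783%, 0.0863%, 0.0902% and 0.128%. Every culture control therefore lay above every culture IL4 library, with control 4 closest to them. In marrow their share was 1.21%, 1.38% and 1.39% in the 3 controls and 0.521%, 0.601% and 0.538% with IL4, again without overlap. The 95% Wilson intervals of these shares, which cover counting error only, were 0.174% to 0.194% in culture control 4 and 0.120% to 0.137% in culture IL4 library 4, and did not overlap. In bulk RNA, fewer dividing cells and less mitotic RNA per cell cannot be told apart.

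**Figure D1:**
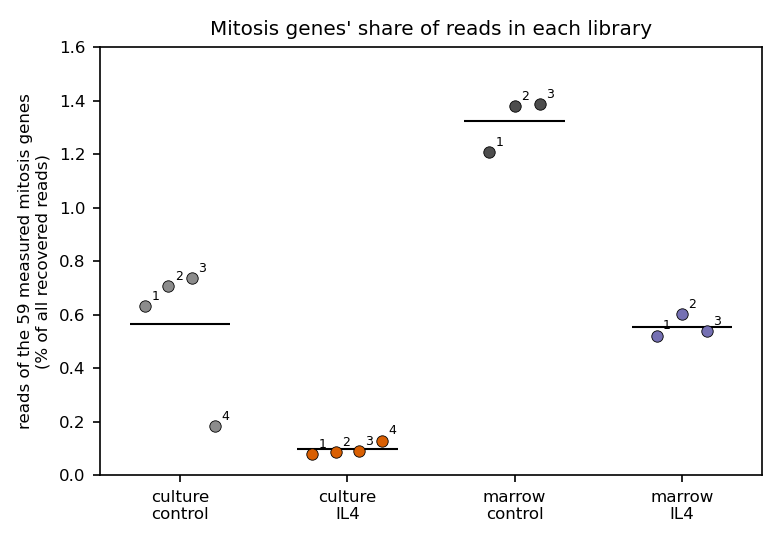
Share of all recovered reads (%, linear axis) that fell on the 59 measured mitosis genes, with 1 point per library labelled by its number and a bar at the mean of each group. The culture controls spread from 0.184% to 0.737% and the culture IL4 libraries lie at 0.128% or below. The 3 marrow controls lie at 1.21% or above and the 3 marrow IL4 libraries at or below 0.601%.

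With IL4 in culture, 56 of the 59 genes were lower and 0 higher (limma, adjusted p below 0.05), and none had a mean above the control mean. Over all 9474 genes, 32.6% were called lower and 7.96% higher, so a fall was common in these libraries. The members' median fold change was 6.18-fold lower (log2 -2.63), against a median of -0.36 over all genes, and ranged from -4.02 for Ckap2 to -0.15 for Pttg1. In 45 of the 59 genes all 4 IL4 libraries lay below all 4 controls, which was the case in 30.2% of all genes, and in no gene of the group did all IL4 libraries lie above the controls (7.49% of all genes). Since the median of all genes itself lay at -0.36, values were also centred on the median of each library. Over all genes this changed the split from 3084 lower and 754 higher to 1205 lower and 1365 higher, and 51 of the 59 mitosis genes were lower and 0 higher, with a median of -2.27. The calls lost on centring were those of Bub1, Bub3, Cenpa, Nuf2 and Spc24. Without both libraries numbered 4, 57 genes were lower and the median was -3.32. Leaving out 1 library at a time gave 51 to 57 lower genes. The calls so lost were those of Bub1, Bub3, Cenpm, Nuf2 and Spc24, all 5 of them without culture control 3, and their highest adjusted p-values were 0.0615 to 0.0825. The 3 genes not called were Cenph (adjusted p = 0.497), Pttg1 (0.716) and Cenpk (0.754).

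In marrow, 55 of the 59 genes were lower in the IL4 group and 0 higher, whereas 11.5% of all genes were lower and 6.7% higher. The median was 2.32-fold lower (log2 -1.21, against -0.06 over all genes), from -2.57 for Aspm to 0.08 for Ndc80. All 3 IL4 libraries lay below all 3 controls in 56 of the 59 genes, against 22.1% of all genes, and all lay above in none (15.5% of all genes). Only Ndc80 had a mean above its controls. Ccnb1 (adjusted p = 0.0772), Cenph (0.0773), Cenpm (0.109) and Ndc80 (0.796) were not called. With values centred on the library medians, 50 genes were lower and 0 higher, and the calls of Bub3, Mad2l1, Cdca8, Cenpk and Pttg1 were lost. Leaving out 1 library at a time gave 46 to 53. The calls so lost were those of Bub3, Mad2l1, Ttk, Cdca8, Cenpk, Nuf2, Spc24, Spc25 and Pttg1, all 9 of them without marrow control 2 or without marrow control 3, and their highest adjusted p-values were 0.0606 to 0.141. A fall in both experiments was called in 53 of the 59 genes. Over all genes, 555 were lower in both, which is 5.86% of all genes, 18% of those lower in culture and 51.1% of those lower in marrow.

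Some markers of other cells also differed between the marrow groups, in both directions. Both measured erythroid markers fell in marrow, with log2 fold changes of -3.66 for Car2 and -2.15 for Tfrc (adjusted p = 7.97e-05 and 4.59e-05), and their sum was 1410 to 1471 RPM in controls and 184 to 256 with IL4. In culture Car2 and Tfrc rose with IL4 (log2 4.11 and 2.41). Car2 had 0 to 1 reads in a culture control library and 6 to 31 in a culture IL4 library. Of 6 monocyte markers 4 fell, among them Ccr2 from 449 to 530 reads in controls to 23 to 46 with IL4, and 1 rose, Chil3, which is also an IL4 target. Of 6 neutrophil markers 1 fell, Ngp (log2 -0.89, adjusted p = 0.0139), and 0 rose. Both B and T cell markers, Cd79b and Il7r, fell, and their sum was 97.1 to 131 RPM in controls and 27.4 to 38.7 with IL4. In culture Il7r rose with IL4 (log2 2.08) and Cd79b fell (-2.38). Of 4 progenitor and blast markers, 2 fell, Sox4 and Tal1 (the latter named after its values were seen), and 1 rose, Gata2, with sums of 234 to 253 and 242 to 284 RPM. Of 3 megakaryocyte markers 1 rose, Itgb3 (log2 1.66). Their part in the fall of the mitosis genes in marrow was not tested.

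**Figure D2:**
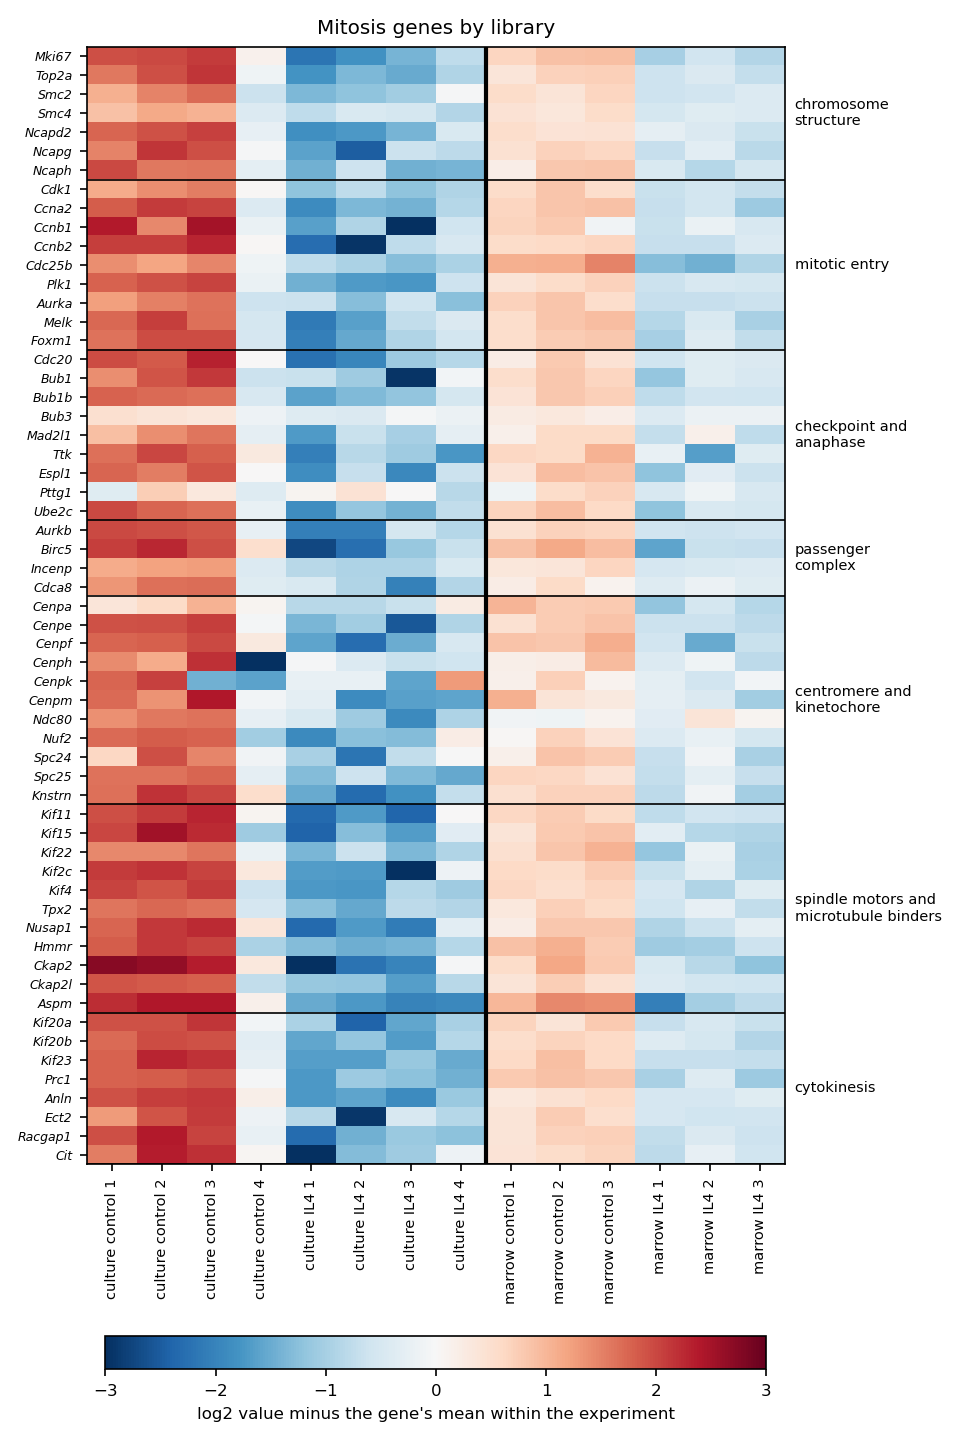
Log2 value of each of the 59 mitosis genes (rows, by role) in each library (columns), minus the mean of that gene within its experiment, on a colour scale cut at -3 and 3. Controls 1 to 3 in culture and all 3 marrow controls are above the mean in nearly every row, culture control 4 is near the mean, and Ndc80 in marrow and Pttg1 in culture stay near the mean in every library.

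Among the chromosome structure genes, all 7 measured members fell in culture (median log2 -2.72) and all 7 fell in marrow (median -1.18). Mki67 (chr7:135689784-135716361, mm10, as are all positions given) encodes Ki-67, the protein that coats mitotic chromosomes and is the standard stain for dividing cells. It had 701, 726, 791 and 202 RPM in the culture controls and 39.3, 51.3, 69.04 and 109 after culture with IL4. In marrow it had 1898, 2236 and 2290.0 in controls and 618, 821 and 664 with IL4. No IL4 library reached its controls in either experiment, and control 4 in culture was the lowest control. The gene was 8.47-fold lower with IL4 (log2 -3.08 ± 0.44, adjusted p = 0.000539) in culture and 3.06-fold lower with IL4 (log2 -1.62 ± 0.15, adjusted p = 0.000217) in marrow. Top2a (chr11:98992943-99024189) encodes topoisomerase II alpha, which untangles sister DNA. Its culture values were 389, 494, 573 and 118 RPM in controls and 36.8, 50.1, 44.6 and 68.03 with IL4, and its marrow values 875, 1095 and 1108 and 443, 496 and 413. The groups again did not overlap. Top2a fell in culture (log2 -2.78 ± 0.43, adjusted p = 0.00085) and in marrow (log2 -1.18 ± 0.14, adjusted p = 0.000656). The other 5 members are condensin subunits: the shared SMC proteins Smc2 and Smc4 fell in culture with log2 fold changes of -1.80 and -1.31, and the condensin I subunits Ncapd2, Ncapg and Ncaph with -2.72, -2.75 and -2.44. In marrow all 5 fell, with values from -1.21 to -0.88. Smc2 was the only gene of this role whose culture groups overlapped.

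All 9 measured genes of mitotic entry fell in culture (median log2 -2.53), and 8 of 9 fell in marrow (median -1.36). Cdk1 (chr10:69335146-69352938) encodes the kinase whose activity starts mitosis. Its culture levels were 81.9, 99.5, 109.6 and 38.5 RPM in controls and 15.9, 21.99, 15.8 and 19.6 with IL4, and its marrow levels 164, 197 and 160.2 and 69.99, 74.98 and 67.6. Every IL4 library lay below every control, and Cdk1 was 4.09-fold lower with IL4 (log2 -2.03 ± 0.32, adjusted p = 0.000921) in culture and 2.43-fold lower with IL4 (log2 -1.28 ± 0.18, adjusted p = 0.0015) in marrow. Its cyclin partners moved with it in culture. Ccna2 (chr3:36564865-36572150), cyclin A2, had 168, 204, 194 and 35.6 RPM in culture controls, 12.3, 18.3, 17.3 and 25.7 in culture IL4 libraries, 347, 395 and 409.8 in marrow controls and 138, 152 and 104 in marrow IL4 libraries. Ccna2 fell in culture (log2 -2.76 ± 0.49, adjusted p = 0.00192) and in marrow (log2 -1.56 ± 0.16, adjusted p = 0.000358), with no overlap of groups. Its exons share 510 bases with Exosc9 on the opposite strand, and the library kit does not mark strand. Ccnb1 (chr13:100778650-100786570), cyclin B1, had few reads: 26, 9, 20 and 3 in culture controls and 1, 2, 0 and 2 in culture IL4 libraries. In marrow it had 35, 38 and 22 reads in controls and 12, 16 and 20 with IL4. Its fall passed the test in culture (log2 -3.06 ± 0.70, adjusted p = 0.00681) and not in marrow (-0.90 ± 0.31, adjusted p = 0.0772), where marrow control 3 lay near the IL4 libraries in RPM (31.8, against at most 29.3). Ccnb2, cyclin B2, fell in both (-3.23 and -1.19). Plk1 (chr7:122159439-122169873), the polo-like kinase of centrosomes and kinetochores, had 74.03, 81.6, 88.9 and 18.5 RPM in culture controls and 7.36, 6.11, 5.75 and 13.6 with IL4, then 108, 120.3 and 133 in marrow controls and 52.5, 58.5 and 56.8 in marrow IL4 libraries. It was 6.78-fold lower with IL4 (log2 -2.76 ± 0.49, adjusted p = 0.00178) in culture and 2.13-fold lower with IL4 (log2 -1.09 ± 0.18, adjusted p = 0.00361) in marrow. Cdc25b, the phosphatase that activates CDK1, had one of the larger falls of the group in marrow (-2.42 ± 0.26, against -1.96 ± 0.36 in culture). Foxm1, the transcription factor of these genes, fell in both (log2 -2.53 in culture and -1.41 in marrow). The kinases Aurka and Melk were at log2 -1.88 and -2.47 in culture and at -1.36 and -1.52 in marrow, all of which passed the test.

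Of the 9 genes of the spindle checkpoint and anaphase control, 8 fell in culture (median log2 -2.38) and all 9 fell in marrow (median -1.30). Cdc20 (chr4:118432901-118437352) encodes the activator that the checkpoint holds back from the anaphase-promoting complex. It was at 101, 93.01, 129 and 25.6 RPM in culture controls and 4.91, 6.11, 11.5 and 13.6 with IL4, and at 179.6, 267 and 208 in marrow controls and 102, 119 and 114 in marrow IL4 libraries. Both pairs of groups were separate. Cdc20 was 8.39-fold lower with IL4 (log2 -3.07 ± 0.49, adjusted p = 0.001) in culture and 1.93-fold lower with IL4 (log2 -0.95 ± 0.17, adjusted p = 0.00516) in marrow. Ttk (chr9:83834689-83872389), the MPS1 kinase at the head of the checkpoint, had 21, 18, 16 and 6 reads in culture controls and 1, 3, 2 and 1 with IL4, and 31, 30 and 45 in marrow controls and 15, 5 and 20 in marrow IL4 libraries. It fell in culture (log2 -2.85 ± 0.46, adjusted p = 0.00102) and in marrow (log2 -1.49 ± 0.39, adjusted p = 0.0292). Bub1b (chr2:118598211-118641591), the checkpoint protein BUBR1, had 172, 163, 159 and 35.6 RPM in culture controls, with control 4 far below the rest, and 15.9, 19.6, 21.6 and 34.8 in culture IL4 libraries. Its marrow values were 221, 288 and 271 in controls and 96.2, 109.7 and 109 with IL4. Bub1b fell in culture (log2 -2.32 ± 0.48, adjusted p = 0.00424) and in marrow (log2 -1.30 ± 0.18, adjusted p = 0.00151). Bub3, which also works outside mitosis, had the smallest called fall in both experiments (log2 -0.52 and -0.51, 1.44-fold and 1.43-fold), and neither call held in values centred on library medians. The checkpoint genes Bub1 and Mad2l1 fell in culture (log2 -2.38 and -1.82) and in marrow (-1.34 and -0.87). Espl1, the protease separase, fell (-2.57 and -1.46), and so did Ube2c, the ubiquitin-conjugating enzyme of anaphase (-2.59 and -1.46). Pttg1, securin, the inhibitor of separase, had only 4 to 13 reads in any library and was the one gene of the role that was not called in culture (log2 -0.15 ± 0.31). In marrow Pttg1 had 6, 10 and 12 reads in controls and 4, 5 and 6 with IL4. Its marrow groups overlapped, as did those of Mad2l1. The marrow call of Pttg1 (limma, log2 -0.75, adjusted p = 0.0411) was lost with voom and with 2 reads added.

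The 4 genes of the chromosomal passenger complex fell in culture (median log2 -2.45) and in marrow (median -1.06), with no overlap of groups in any of them. Aurkb (chr11:69045647-69051664) encodes its kinase, Aurora B, which corrects faulty attachments. Its levels in culture were 69.5, 66.9, 63.5 and 14.2 RPM in controls and 3.68, 3.67, 11.5 and 9.07 with IL4. In marrow they were 162, 191 and 183 in controls and 76.99, 74.98 and 78.5 with IL4, so that the marrow IL4 libraries lay close together. Aurkb was 6.73-fold lower with IL4 (log2 -2.75 ± 0.57, adjusted p = 0.00399) in culture and 2.31-fold lower with IL4 (log2 -1.21 ± 0.19, adjusted p = 0.00242) in marrow. Birc5 (chr11:117849251-117855743), survivin, which targets the complex to the centromere, had 86.4, 96.3, 77.8 and 28.5 RPM in culture controls and 2.45, 3.67, 8.63 and 12.1 with IL4, and 166, 200.4 and 172 in marrow controls and 29.8, 56.7 and 55.6 in marrow IL4 libraries. It had the largest fall of the complex in both experiments, 10.5-fold in culture (log2 -3.39 ± 0.52, adjusted p = 0.000841) and 3.88-fold in marrow (-1.95 ± 0.28, adjusted p = 0.00163). The scaffold Incenp and Cdca8, borealin, fell in culture (log2 -1.58 and -2.14) and in marrow (-0.91 and -0.62). Cdca8 shares 232 exon bases with 9930104L06Rik on the opposite strand.

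Of 11 measured centromere and kinetochore genes, 9 fell in culture (median log2 -2.17) and 8 in marrow (median -1.16), and 7 fell in both. Knstrn (chr2:118814003-118853957), which encodes the kinetochore and spindle protein SKAP, had 103, 147, 133 and 47.02 RPM in culture controls and 11.04, 6.11, 8.63 and 19.6 with IL4, and 144, 166 and 167 in marrow controls and 59.5, 95.1 and 50.7 in marrow IL4 libraries. Its groups did not overlap, and it was 8.98-fold lower with IL4 (log2 -3.17 ± 0.41, adjusted p = 0.000287) in culture and 2.39-fold lower with IL4 (log2 -1.26 ± 0.23, adjusted p = 0.00574) in marrow. Cenpf (chr1:189640606-189688086), a protein of the outer kinetochore, had 130.1, 134, 152 and 47.02 RPM in culture controls and 12.3, 7.33, 12.9 and 27.2 with IL4, and 210.5, 205 and 249.7 in marrow controls and 78.7, 40.2 and 73.7 in marrow IL4 libraries. It fell in culture (log2 -2.92 ± 0.43, adjusted p = 0.000641) and in marrow (log2 -1.83 ± 0.24, adjusted p = 0.00119). Cenpa (chr5:30666777-30674830) encodes the histone H3 variant that marks centromeric chromatin. Its culture levels were 62.8, 71.8, 100 and 51.3 RPM in controls and 27, 26.9, 30.2 and 57.4 with IL4, and here IL4 library 4 overlapped the controls. In marrow they were 155, 129.5 and 133 in controls and 33.2, 53.04 and 42.3 with IL4, without overlap. The fall of Cenpa was 2.05-fold in culture (log2 -1.03 ± 0.27, adjusted p = 0.0118), a call lost in values centred on library medians, and 3.25-fold in marrow (-1.70 ± 0.17, adjusted p = 0.000358). Cenpe, the kinetochore kinesin, fell in both (log2 -2.93 and -1.39).

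The 4 subunits of the NDC80 complex, the microtubule grip of the kinetochore, all fell in culture, and 3 of them fell in marrow. In culture Ndc80, Nuf2, Spc24 and Spc25 had log2 fold changes of -2.17, -2.12, -1.95 and -2.38, and all 4 were called. The culture groups of Nuf2 and Spc24 overlapped, and their calls were lost in centred values and with a replicate block. In marrow Nuf2, Spc24 and Spc25 fell (-0.77, -1.18 and -1.14, adjusted p = 0.0166, 0.0328 and 0.023). Ndc80 itself had 75.8, 74.01 and 88.03 RPM in marrow controls and 64.7, 106 and 85.8 in marrow IL4 libraries, so the groups overlapped (log2 0.08 ± 0.18, adjusted p = 0.796). In culture the same gene had 62.8, 71.8, 74.6 and 19.9 in controls and 17.2, 11, 5.75 and 12.1 with IL4. Ndc80 was singled out after its values were seen, and the difference between subunits within marrow was not tested. Of the inner kinetochore genes, Cenpm had 6, 3, 7 and 1 reads in culture controls and 1, 0, 0 and 0 with IL4, and Cenpk had at most 6 in any culture library. Cenph had 13, 7, 16 and 0 reads in culture controls and 4, 3, 2 and 2 with IL4, and without control 4, which had none, its fall passed the test (log2 -2.0, adjusted p = 0.00386). Cenpm was called in culture (adjusted p = 0.0168) and Cenpk was not (log2 -0.38 ± 0.89, adjusted p = 0.754), and counts this low carry wide counting error. In marrow Cenpk fell (log2 -0.64, adjusted p = 0.0487), Cenph was at -0.89 and Cenpm at -1.16. The Cenpk call was lost on leaving out any 1 of the 6 marrow libraries. With voom, or with 2 reads added before the log2, Cenpk and Pttg1 were not called in marrow, whereas Ccnb1, Cenph and Cenpm were called lower.

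All 11 spindle motors and microtubule binders fell in both experiments (median log2 -2.86 in culture and -1.31 in marrow), and these included the largest falls of the whole group. Aspm (chr1:139454772-139494091) encodes a protein that focuses spindle poles. It had 121, 137, 138 and 28.5 RPM in culture controls and 8.59, 7.33, 5.75 and 6.05 with IL4, and 152, 207 and 199 in marrow controls and 17.5, 36.6 and 43.5 in marrow IL4 libraries. Aspm was 12.04-fold lower with IL4 (log2 -3.59 ± 0.44, adjusted p = 0.000222) in culture and 5.92-fold lower with IL4 (log2 -2.57 ± 0.30, adjusted p = 0.000653) in marrow, the smallest culture p and the largest marrow fall of the 59 genes. Nusap1 (chr2:119618298-119651244), which bundles spindle microtubules, had 72.9, 93.01, 102 and 27.1 RPM in culture controls and 3.68, 6.11, 4.32 and 16.6 with IL4, and 144, 219 and 218 in marrow controls and 66.5, 78.6 and 102 in marrow IL4 libraries. It fell in culture (log2 -3.23 ± 0.50, adjusted p = 0.000818) and in marrow (log2 -1.22 ± 0.21, adjusted p = 0.00426), with no overlap of groups. Hmmr (chr11:40701395-40733422), a microtubule-binding partner of TPX2, was an example of the position of culture control 4. Its culture levels were 101, 124, 116 and 14.2 RPM in controls and 11.04, 9.77, 10.1 and 15.1 with IL4, so control 4 lay below IL4 library 4. In marrow Hmmr was at 132, 151 and 121 in controls and 33.2, 34.8 and 45.9 with IL4. It fell in culture (log2 -2.51 ± 0.59, adjusted p = 0.00754) and in marrow (log2 -1.81 ± 0.18, adjusted p = 0.000358). Ckap2 had the largest fitted culture change (log2 -4.02 ± 0.78) on 50, 32, 27 and 7 reads in controls and 0, 1, 1 and 5 with IL4. The kinesins Kif11, Kif15, Kif22, Kif2c and Kif4 had log2 fold changes of -3.21, -2.86, -2.13, -3.29 and -2.70 in culture and of -1.57 to -1.19 in marrow. Tpx2, which activates Aurora A on the spindle, and Ckap2l were at -2.23 and -2.39 in culture and at -1.06 each in marrow.

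All 8 cytokinesis genes fell in both experiments without overlap of groups (median log2 -2.97 in culture and -1.20 in marrow), and their culture falls were the most alike of any role, from -3.15 to -2.55. Anln (chr9:22332012-22389188), anillin, the scaffold of the contractile ring, had 130.1, 145, 151 and 38.5 RPM in culture controls and 9.82, 11, 8.63 and 15.1 with IL4, and 132, 143 and 159 in marrow controls and 73.5, 73.2 and 80.9 in marrow IL4 libraries. It was 8.896-fold lower with IL4 (log2 -3.15 ± 0.41, adjusted p = 0.000307) in culture and 1.89-fold lower with IL4 (log2 -0.92 ± 0.17, adjusted p = 0.00531) in marrow. Prc1 (chr7:80294450-80316259), which crosslinks the central spindle, had 145, 150.1, 164 and 41.3 RPM in culture controls and 12.3, 19.6, 17.3 and 15.1 with IL4, and 246, 261 and 249.7 in marrow controls and 71.7, 108 and 66.4 in marrow IL4 libraries. Prc1 fell in culture (log2 -2.75 ± 0.39, adjusted p = 0.000499) and in marrow (log2 -1.64 ± 0.18, adjusted p = 0.000486). The central spindle kinesins Kif20a, Kif20b and Kif23 fell in culture (log2 -2.95, -2.63 and -2.98) and in marrow (-1.22, -1.21 and -1.39). Kif20a shares 1271 exon bases with Cdc23 on the opposite strand. Other members with exon bases shared with a measured gene on the opposite strand are Ncapg (944 with Lcorl), Kif4 (832 with Pdzd11), Cenpk (233 with Ppwd1), Nusap1 (172 with Oip5) and Cdc20 (53 with Elovl1). Prc1 shares 911 with Rccd1 and Ube2c 592 with Tnnc2, neither of which was analysed here. Racgap1, the partner of Kif23, Ect2, the exchange factor that switches on RhoA, and the kinase Cit fell in culture (log2 -3.06, -2.55 and -3.06) and in marrow (-1.19, -1.11 and -1.07).

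**Figure D3:**
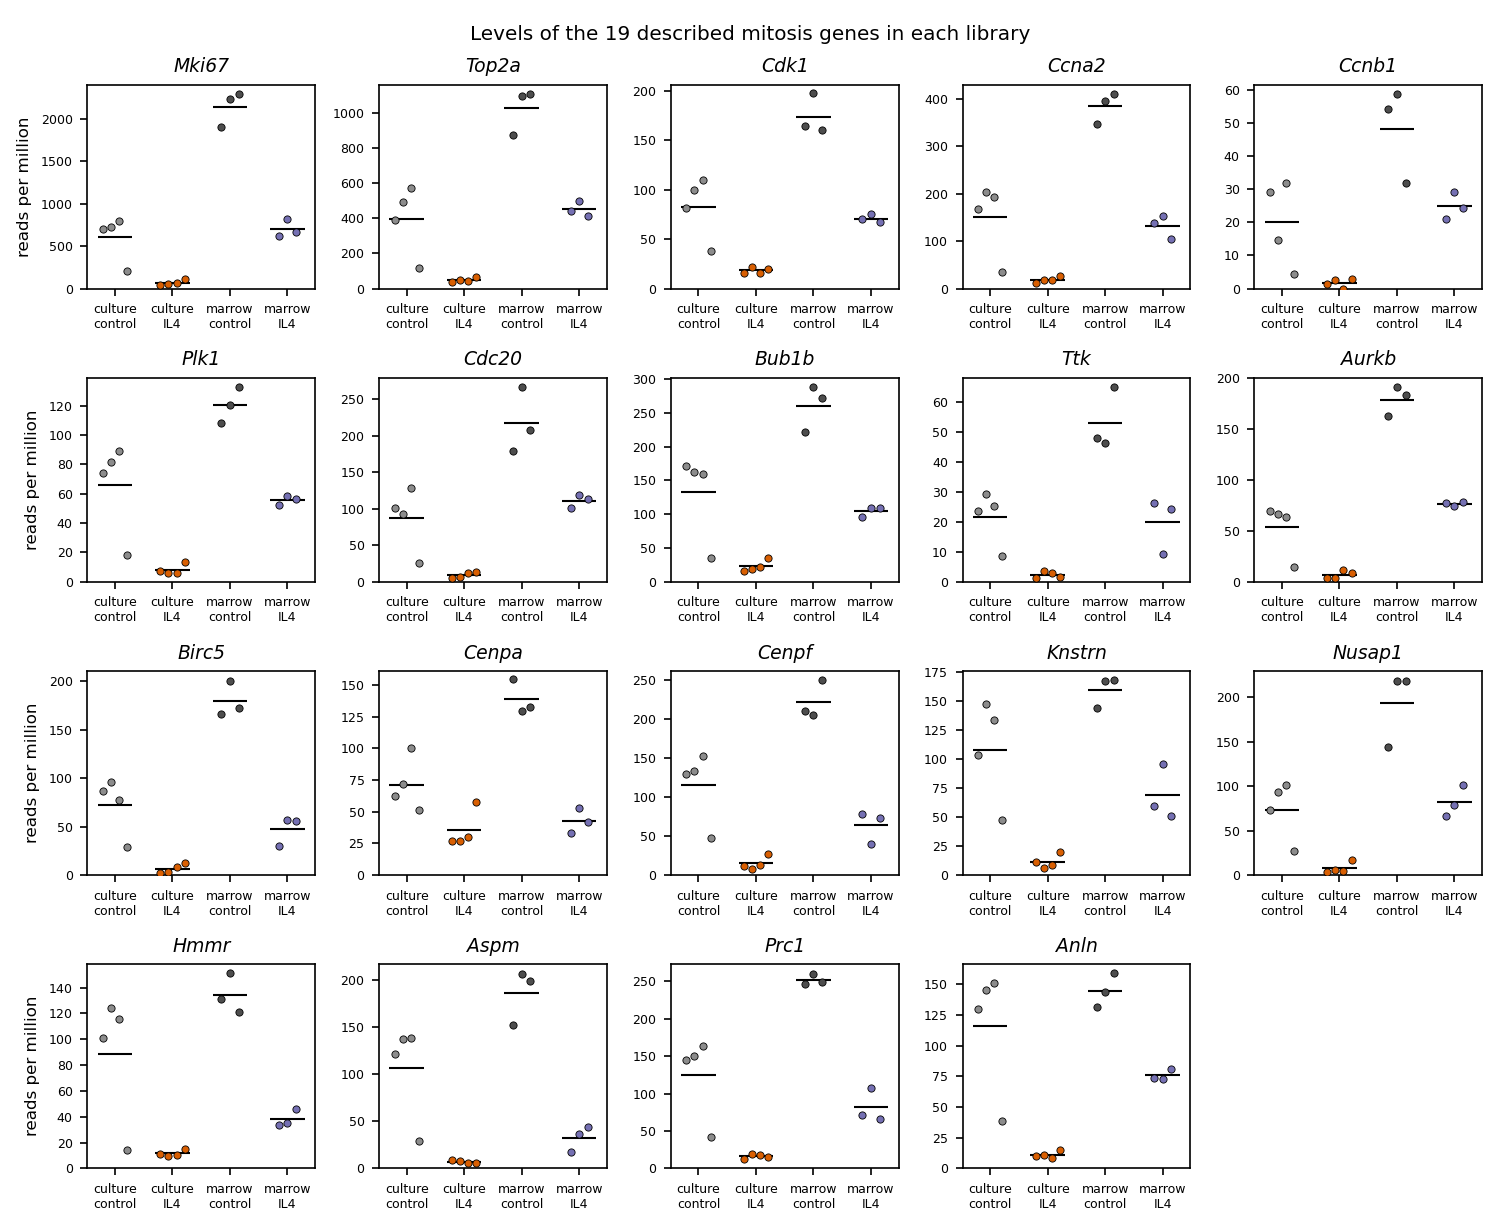
Levels in RPM (linear axes from 0, a scale of its own in each panel) of 19 mitosis genes, with 1 point per library and a bar at the group mean; within each group the points run from replicate 1 on the left. In the culture control column the fourth point lies below the other 3 in each panel, and the marrow IL4 points lie below the marrow control points in each panel.

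Culture control 4 was below each of the other 3 controls in all 59 genes, whereas this was so for 40.4% of all genes. Its median distance from the mean of controls 1 to 3 was log2 -2.02 over the 59 genes (4.04-fold) and -0.12 over all genes. It still lay above all 4 IL4 libraries in 45 of the 59 genes (45.2% of all genes). IL4 library 4 lay above the other 3 IL4 libraries in 35 genes (34.4% of all genes), by a median of log2 0.69 over the group and 0.06 over all genes. Between the libraries numbered 4 alone, the IL4 library was below the control in 48 of the 59 genes, against 63.3% of all genes, and the median difference was log2 -0.52 (1.44-fold), against -0.21 over all genes. Between the libraries numbered 1 to 3 the median difference was -3.32 (10.0-fold). The culture response of these genes was thus of very different size in the 2 subsets and of the same direction in the median. The libraries numbered 4 also stood apart beyond these genes. The disagreement of replicate pairs (chi-square per degree of freedom) was 4.43 to 5.98 with control 4 and 1.44 to 2.28 between other controls. It was 4.26 to 6.12 with IL4 library 4, against 1.40 to 1.67. The 50 DNA replication genes summed to 1480 RPM in control 4 and 2542 to 2893 in the other controls. In IL4 library 4 the DNA replication genes summed to 1646 RPM, above control 4, and in the other IL4 libraries to 1135 to 1259. The macrophage genes differed less in control 4 (15280, against 15470 to 16560). The B and T cell markers summed to 423 RPM in control 4 and 103 to 178 in the other controls. In IL4 library 4 the neutrophil markers summed to 207 RPM, against 433 to 486 in the other IL4 libraries. The erythroid markers summed to 1175 RPM there, against 423 to 535. The labels name no batch, date or animal that sets the libraries numbered 4 apart, and the control and IL4 libraries with the same number did not deviate together over all genes.

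**Figure D4:**
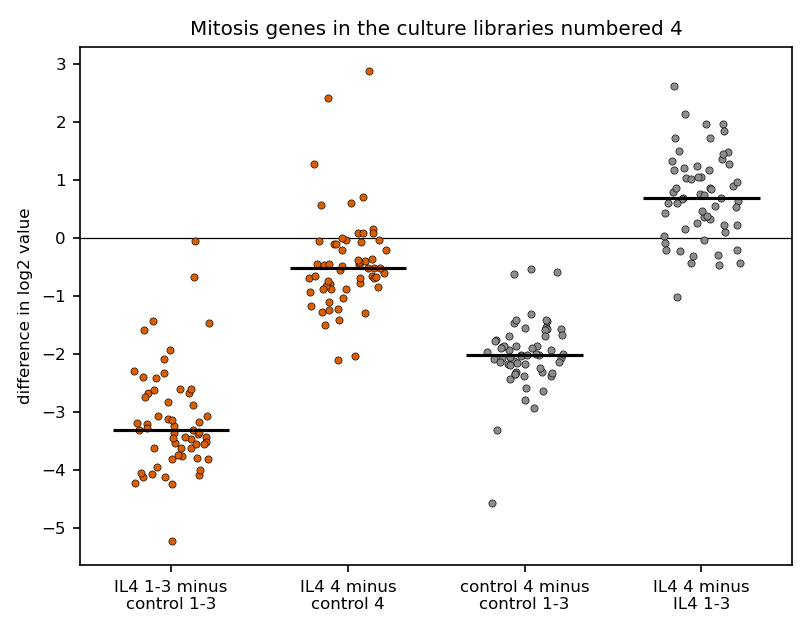
Differences in log2 value for the 59 mitosis genes (1 point per gene, bar at the median) between subsets of the culture libraries, with means taken over libraries 1 to 3. The medians are -3.32 for IL4 against control in libraries 1 to 3, -0.52 in libraries 4, -2.02 for control 4 against the other controls, and 0.69 for IL4 library 4 against the other IL4 libraries.

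The culture fall was larger than the marrow fall in 54 of the 59 genes, and the median difference of the 2 responses was log2 -1.35, against -0.3 over all genes. Tested in 1 limma model over all 14 libraries, the difference passed for 5 genes, all with the larger fall in culture, and for 0 with the larger fall in marrow. Over all genes 16.6% were more negative in culture and 6.45% more positive, against 8.47% and 0 of the 59 genes. At an unadjusted p below 0.05, 23 genes had the larger fall in culture and 0 in marrow. The 5 genes were Anln (difference of log2 fold changes -2.23 ± 0.53, adjusted p = 0.00758), Ndc80 (-2.26 ± 0.57, adjusted p = 0.011), Knstrn (-1.91 ± 0.56, adjusted p = 0.0235), Cdc20 (-2.12 ± 0.64, adjusted p = 0.027) and Nusap1 (-2.01 ± 0.66, adjusted p = 0.0406). This count depended on the culture libraries numbered 4: without culture control 4 it was 49 (83.1% of the members, against 20.4% of all genes), and without culture IL4 library 4 it was 13 (22% against 17.7%). Without any other 1 library it was 2 to 4. With a z of the difference of the 2 separate fits it was 29 (49.2% against 23.2%). The z was referred to a normal distribution. This makes no allowance for the few residual degrees of freedom, so it passes genes more easily than the 1 model. The share of the 59 genes was therefore below that of all genes with all 14 libraries in the 1 model and above it without either culture library numbered 4 or with the z. The 5 genes with the larger fall in marrow were Cdc25b, Pttg1, Cenpa, Cenph and Cenpk, with differences from 0.04 to 0.67, none of which passed. Across the 59 genes the log2 fold changes in culture and marrow had r = 0.42 and rho = 0.39 (0.29 and 0.20 over all genes), a description across genes that share libraries and depth.

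**Figure D5:**
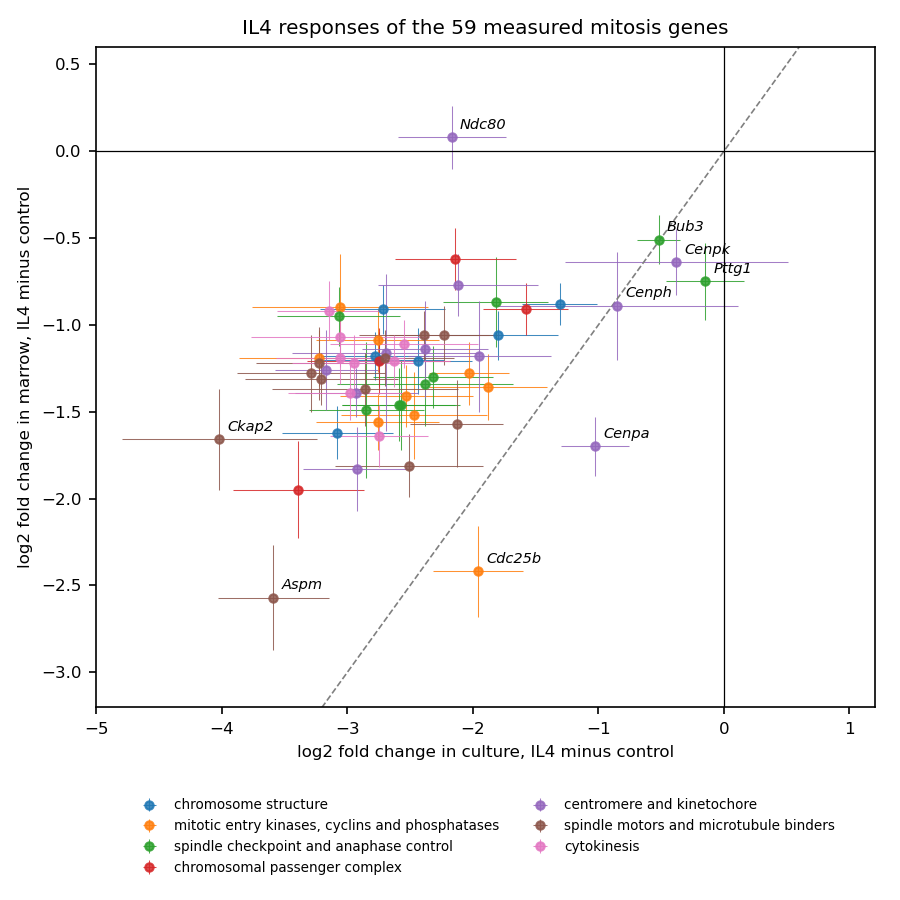
Log2 fold change with IL4 of the 59 mitosis genes in marrow (vertical axis) against culture (horizontal axis), coloured by role, with standard errors as bars and the line of equal change dashed. All points but Ndc80 lie below 0 in marrow, all lie below 0 in culture, and 54 lie to the left of the dashed line.

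The 4 groups can be ordered by these genes in RPM, with the limit that culture and marrow were separate experiments and that their libraries hold different cells. Marrow controls were highest. Their mean was above that of the culture controls in all 59 genes, by a median of 2.16-fold (58 genes and 1.78-fold without culture control 4), and in 49 genes every marrow control lay above every culture control (32.6% of all genes). Marrow IL4 libraries stood at a median ratio of 0.908 to the culture controls, with the marrow mean higher in 25 of the 59 genes. Without culture control 4, an alternative chosen after seeing the data, the ratio was 0.744 and the marrow mean was higher in 17. Culture IL4 libraries were lowest, and the marrow IL4 libraries lay above them without overlap in 57 genes (42.7% of all genes), by a median of 6.03-fold. These cross-experiment ratios are descriptions without a test.

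Genes that work beside the 59 were read from 9 further lists. Over all 9474 genes 32.6% were lower in culture (12.7% when centred on library medians) and 11.5% in marrow (8.92% when centred), and the counts of each list stand against these shares. In the anaphase-promoting complex, whose subunits also act outside mitosis, 9 of 15 measured genes were lower in culture and 0 higher, but only 2 were lower with centred values, a share near that of all genes, and 3 were lower in marrow. Fzr1, its activator after mitosis, fell in both (log2 -0.99 and -1.01). Of 13 genes of cohesin and its regulators 11 were lower in culture (4 when centred) and 5 in marrow, with Sgol2, the shugoshin that protects centromeric cohesion, at -3.18 and -1.37. All 3 condensin II genes were lower in culture and 2 in marrow, and Ncapg2 fell by 2.93 ± 0.26 (log2) in culture (adjusted p = 3.5e-05). Of 33 further centromere and kinetochore genes 22 were lower in culture (15 when centred) and 9 in marrow (6 when centred), with 0 higher in either. Casc5, the kinetochore scaffold KNL1, fell in both (log2 -3.05 and -1.31). Of 50 further spindle, centrosome and midbody genes 31 were lower and 1 higher in culture (19 and 3 when centred), and 23 lower and 1 higher in marrow. The gene that rose in both was Tacc2, by 2.19 ± 0.23 in culture and 3.08 ± 0.20 in marrow (adjusted p = 9.49e-05 and 4.59e-05).

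Of the regulators upstream, 5 of 14 DREAM, MuvB and B-Myb genes were lower in culture (2 when centred) and 3 in marrow, with 0 higher, and both culture shares were near those of all genes. Lin9, a MuvB subunit, was at -2.04 (adjusted p = 0.000747) in culture and -0.72 (adjusted p = 0.133) in marrow. Of 20 G1 and S regulators 13 were lower and 1 higher in culture (8 and 1 when centred), and 9 lower and 1 higher in marrow. E2f2, an activator of S phase genes, fell in both (log2 -3.37 and -0.98). The list of 12 CDK inhibitors and p53 targets was mixed, with 5 lower and 2 higher in culture (3 and 2 when centred) and 5 lower and 4 higher in marrow (3 and 5 when centred). Cdkn2c, the CDK inhibitor p18, fell in culture (log2 -2.82) and in marrow (-2.65), and Sesn2, a stress-response gene, rose in marrow (1.84). Cdkn1a, the CDK inhibitor p21, rose in both (0.73 ± 0.25, adjusted p = 0.0377, and 2.13 ± 0.29, adjusted p = 0.00131), and so did Gadd45a, a stress-response gene (1.49 and 0.79, adjusted p = 0.00862 and 0.0446). Both were chosen after their values were seen. Sesn1 of the same list fell in both experiments (log2 -1.71 and -0.97, adjusted p = 0.000168 and 0.0475). Btg2 and Cdkn3, also chosen after their values were seen, fell in both too (-0.75 and -0.86, and -3.12 and -1.94). Of 50 DNA replication genes 30 were lower in culture (11 when centred) and 25 in marrow (21 when centred). Rrm2, the ribonucleotide reductase subunit of S phase, fell in both (log2 -2.31 and -0.98). Their median log2 fold change was -1.14 in culture and -0.63 in marrow, against -2.63 and -1.21 for the 59 mitosis genes. In the list of 11 macrophage genes 7 were lower and 2 higher in culture, and 4 lower and 1 higher in marrow, with summed levels of 15280 to 16560 and 7995 to 8911 RPM in culture controls and IL4 libraries and 7401 to 8278 and 2988 to 3562 in the marrow groups. Among other cell markers in culture, 3 of 6 monocyte markers fell and 2 rose (Fn1 and Chil3), 1 of 6 neutrophil markers fell and 1 rose, 0 of 2 erythroid markers fell and 2 rose, 1 of 2 B and T cell markers fell and 1 rose, 3 of 4 progenitor and blast markers fell, and 1 of 3 megakaryocyte markers fell and 2 rose. Their part in the culture result was not tested.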

How the data were processed

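RNA of 14 mouse libraries was sequenced: 4 culture control, 4 culture IL4, 3 marrow control and 3 marrow IL4 libraries. The TruSeq RNA v2 kit, which does not mark strand, was used per the labels' protocols, and the submitters' processing notes name bcl2fastq, TopHat2 2.0.13 and mm10. How reads were counted, filtered and normalized is not given in the sources used here. The deposited values are on a log2 scale: each equals log2 of whole reads plus 0.5, shifted by 1 constant for the gene, shared by both tables, and 1 for the library. Joint solution over the 14 libraries returned whole reads for all 9474 genes (100%; largest residual 0.00063 in the 6347 genes with fewer than 100 reads throughout). The smallest counts that fitted were taken. For genes with very high counts this scale may be less unique, which can move library totals, RPM and shares of reads slightly. Reads were used for levels, and the deposited log2 values for tests. The deposited fold changes, p-values and q-values of the authors were not used, and 0 columns of per-sample values were left out.

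limma 3.58.1 (R 4.3.3) with a variance trend was fitted to all 9474 genes in each table (6 residual degrees of freedom in culture, 4 in marrow) and in 1 model over both for the difference (10). The trend was taken along the mean deposited value of a gene. That mean holds the constant of the gene, so the trend need not follow read depth. Without the trend 56 members were lower in culture and 49 in marrow. With voom, which uses the recovered reads, 56 were lower in culture and 56 in marrow. Tests are two-sided, with 4 libraries per group in culture and 3 in marrow, and Benjamini-Hochberg adjustment covered all genes (threshold 0.05). Recovery and tests were checked on simulated data. Positions are from GENCODE (mm10) and promoters from RefSeq (GRCm38.p6). Per-library values are given for 19 genes chosen by rule: Mki67, Top2a, Cdk1, Ccnb1, Plk1, Aurkb and, in each role, the 2 members with the smallest culture p and the 1 with the smallest marrow p. Promoters are shown for those of the 19 with both motifs before the first annotated start. The members, the 16 further lists (244 measured genes) and these rules were chosen with earlier results of these data known. Same-numbered control and IL4 libraries were not treated as pairs, since their deviations from the group means did not correlate above 0.1. No replicate pair of a group agreed within sampling noise. Alternatives were other scalings, a read minimum, another pseudocount, no variance trend, voom, a replicate block and single libraries left out.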

Additional observations from a re-analysis of the deposited data

Results flagged for a closer look

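In the culture control group 1 library stood far from the other 3 in 32 of the 59 mitosis genes, and in each of the 32 it was control 4, the lowest (by Dixon's ratio of the gap to the whole range, past its 95% critical value). Chance alone sets off this rule in about 1 in 20 groups, and over all genes it did so in 6.87% of them. The log2 values of control 4, each with the range of controls 1 to 3, follow by role; they compare only within a gene. Of the chromosome structure genes these were Mki67 at 6.3 (others 8.09 to 8.27), Smc4 at 5.79 (others 7.07 to 7.33) and Ncapd2 at 3.95 (others 5.94 to 6.25). For mitotic entry they were Ccna2 at 6.35 (others 8.56 to 8.85), Ccnb2 at 3.31 (others 5.36 to 5.56), Plk1 at 2.31 (others 4.26 to 4.53), Aurka at 1.73 (others 3.58 to 3.96), Melk at 1.36 (others 3.55 to 3.97) and Foxm1 at 4.12 (others 6.26 to 6.58). In the checkpoint and anaphase group they were Bub1b at 2.61 (others 4.75 to 4.86) and Ube2c at 4.09 (others 5.97 to 6.3). The passenger complex added Aurkb at 1.19 (others 3.3 to 3.42) and Incenp at 4.46 (others 5.98 to 6.11). Among centromere and kinetochore genes they were Cenpe at 4.92 (others 6.89 to 7.04), Cenpf at 5.03 (others 6.48 to 6.71), Ndc80 at 5 (others 6.61 to 6.87), Nuf2 at 6.84 (others 9.57 to 9.69) and Spc25 at 0.17 (others 2.07 to 2.18). The spindle motors and microtubule binders were Kif11 at 2.22 (others 4.07 to 4.41), Kif15 at 1.71 (others 4.77 to 5.29), Kif22 at 4.35 (others 5.99 to 6.16), Kif2c at 3.07 (others 4.78 to 4.92), Kif4 at 3.45 (others 5.98 to 6.18), Tpx2 at 6.08 (others 8.19 to 8.31), Hmmr at 2.93 (others 5.69 to 6), Ckap2 at 1.3 (others 3.33 to 3.71), Ckap2l at 4.69 (others 7.24 to 7.33) and Aspm at 4.79 (others 6.85 to 7.04). Cytokinesis genes were Kif20a at 4.7 (others 6.68 to 6.93), Kif20b at 5.61 (others 7.61 to 7.87), Prc1 at 5.95 (others 7.74 to 7.92) and Anln at 3.45 (others 5.18 to 5.4). The mean centred log2 value over the 59 genes was -0.26 in control 4 and 1.61 to 1.8 in controls 1 to 3.

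In the culture IL4 group 3 genes were set off, against 6.4% of all genes. Cenpa was highest in IL4 library 4 (log2 value 9.09, others 8.01 to 8.18), Ect2 was lowest in library 2 (1.66, others 3.73 to 4.1) and Ncaph was highest in library 2 (4.88, others 4.06 to 4.12). Groups of 3 marrow libraries were not examined in this way.

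The culture and marrow responses differed by the test of the difference in 5 genes. Culture minus marrow was log2 -2.12 for Cdc20, -2.26 for Ndc80, -1.91 for Knstrn, -2.23 for Anln and -2.01 for Nusap1 (limma, adjusted p = 0.027, 0.011, 0.0235, 0.00758 and 0.0406).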

How the results depend on the processing

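The direction of the group's response did not depend on the settings tried: 0 members were called higher in culture or in marrow under any of them. The number called lower in culture was 56 and ran from 51 to 57 over 16 alternatives, and in marrow it was 55 and ran from 46 to 56 over 13. Of the 56 culture calls 50 held in every alternative that tested the gene, and of the 55 marrow calls 46. A minimum mean of 10 reads left 51 members in culture, all called, and 57 in marrow, of which 54 were called. With a replicate block, which treats same-numbered libraries as pairs, 53 were lower in culture and 54 in marrow; in marrow every library correlated best with its own number, in culture not, and these are hints from the data only. For the difference of the responses the count of 5 became 29 with z of the separate fits and 2 to 49 on leaving out 1 library, with 49 without culture control 4 (83.1% of members, against 20.4% of all genes). The cause was not tested. Of single genes that were not called, Pttg1 turned to 0.21 in culture in centred values and, with 1 library left out, ran from -0.32 to 0.10 (0.07 without control 2, 0.10 without IL4 library 4). Cenpk in culture ran from -0.98 to 0.24 with 1 library left out, and was 0.14, 0.24 and 0.09 without control 1, control 2 or IL4 library 3. Ndc80 in marrow ran from -0.09, without IL4 library 2, to 0.27. Depth is low for Cenpk, Cenph, Cenpm and Pttg1, each with at most 16 reads in any culture library.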
